A study of Mus musculus with 16 samples.

Results

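The genes described here are 38 interferon-stimulated genes outside the OAS and IFITM families. They were chosen as a list of named genes, with earlier results of these data known. They were read on the probe sets that carry their symbol alone. Of the 38, 35 were measured that way, out of 22180 genes in all. Parp10 and Dtx3l were carried only by probe sets that list several symbols, and Ifi44 was matched to no named probe set, so these 3 were not used here. For Sp100, which had 4 such probe sets, and for Lgals3bp and Ifi35, which had 2 each, the brightest by its mean over all arrays was taken.

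RNA was measured on 16 arrays of myeloid progenitors sorted from the bone marrow of wild-type C57BL/6 mice. One set of mice drank a mixture of ampicillin, metronidazole, neomycin and vancomycin for 3 weeks, each antibiotic at 1 g/L, and the other set drank control water. Both waters held 2% sucrose. Cells without lineage markers (Sca-1 among them) and CD105 but with Kit were sorted into common myeloid progenitors (CMPs), granulocyte-monocyte progenitors (GMPs) and cMoPs, the committed monocyte progenitors. CMPs and GMPs lacked CD115 and were told apart by CD16/32, intermediate in CMPs and high in GMPs, while cMoPs carried CD115 and Ly6C. Antibiotic groups had 3 arrays for each progenitor, while the control groups had 3 arrays for CMPs, 2 for GMPs and 2 for cMoPs. The labels do not say whether an array stands for 1 mouse or a pool, or whether the progenitors of 1 replicate number came from the same mice, so p-values measure the spread between these arrays, which may be technical.

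Interferons are cytokines released on sensing of viruses or bacteria. Type I interferon binds the receptor chains IFNAR1 and IFNAR2, whose kinases JAK1 and TYK2 activate STAT2, which joins IRF9 in a complex that binds the interferon-stimulated response element (ISRE) of its target genes. Interferon-gamma acts at a different element, the gamma-activated site (GAS). Many of the target genes are sensors of viral nucleic acid or block steps of viral growth, and low expression without infection is known as tonic interferon signalling.

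Promoters of the members are shown because the element through which the pathway acts can be read in them. RefSeq windows on GRCm38.p6, 300 bases each with 250 before the annotated start, were matched for 29 of the 38 members. Those without a window were Mx1, Mx2, Parp9, Parp10, Parp14, Rtp4, Usp18, Zbp1 and Dhx58. The ISRE motif was searched on both strands as GAAANNGAAA and TTTCNNTTTC, and 12 of the 29 members (41.4%) held it, against 3.99% of 27025 genes. The GAS motif, TTCNNNGAA, which reads the same on both strands, was in 7 of the 29 (24.1%), against 9.55% of all genes. In Bst2 the ISRE stretch overlapped 1 GAS match, and a match is a description of the letters, not a shown binding site. The 250 bases before the start of Isg15 (chr4:156200819-156201068, minus strand) are given first, with the ISRE letters in capitals, where 3 matches overlap between 78 and 57 bases before the start.
Isg15: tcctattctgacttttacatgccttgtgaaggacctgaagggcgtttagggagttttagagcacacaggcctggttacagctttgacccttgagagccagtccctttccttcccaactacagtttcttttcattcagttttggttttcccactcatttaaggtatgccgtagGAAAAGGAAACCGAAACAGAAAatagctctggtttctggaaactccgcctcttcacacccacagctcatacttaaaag

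Short windows of at most 30 bases around the motif follow for Ifih1, called lower after antibiotics, and for 5 members that were not. They lie at chr2:62646206-62646233 (Ifih1, minus strand), chr4:40239804-40239833 (Ddx58, minus), chr19:34640794-34640823 (Ifit1, plus), chr19:34583397-34583426 (Ifit3, plus), chr10:128270266-128270295 (Stat2, plus) and chr5:92349083-92349112 (Cxcl10, minus). Capitals again mark the motif.
Ifih1: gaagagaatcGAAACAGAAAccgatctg
Ddx58: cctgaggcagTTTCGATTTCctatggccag
Ifit1: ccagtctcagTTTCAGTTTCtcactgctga
Ifit3: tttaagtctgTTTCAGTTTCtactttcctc
Stat2: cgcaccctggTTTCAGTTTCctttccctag
Cxcl10: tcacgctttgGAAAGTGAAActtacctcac
The motif stood 32 to 41 bases after the start in Ifih1, 85 to 76 bases before it in the Ifit1 window shown and 213 to 204 bases before it in Cxcl10. The other members with the motif were Rsad2, Bst2, Trim30a, Trim21 and Eif2ak2. So the motif stood in Isg15 and Ifih1, called after antibiotics, and also in Ifit1 and Cxcl10, whose log2 differences over the progenitors were -0.03 and 0.06. The other called members, Rtp4 and Parp14, had no window.

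Values are log2 signals, so a difference of 1 is a doubling, and levels of different genes are not compared because each rests on its own probe set. The array medians lay between 4.04 and 4.17 and the lower quartiles between 2.89 and 2.99. No detection calls come with the table. Mx2 in antibiotic GMPs (2.73 ± 0.20, SD, n = 3) was the only group mean of a member below 2.99. Csf1r, the gene of CD115, averaged 6.52 in antibiotic and 7.10 in control CMPs, 7.18 in antibiotic and 7.60 in control GMPs, and 9.29 in antibiotic and 9.39 in control cMoPs. Fcgr3, a gene of CD16/32, averaged 9.81 in GMPs of either water, against 6.65 in antibiotic and 6.68 in control CMPs. Other genes of the gate did not line up with it in the same way. Ly6c2, a gene of Ly6C, by which cMoPs were sorted, averaged 12.72 in antibiotic and 12.67 in control cMoPs and nearly as much in GMPs (12.59 and 12.52), while in CMPs neither water averaged above 10.57. Eng, the gene of CD105, which the gate excluded in all 3 populations, averaged 8.17 in antibiotic and 8.50 in control CMPs, 6.41 and 7.02 in GMPs, and 7.03 and 7.22 in cMoPs, above the array medians in every group.

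The first comparison was between antibiotic and control water, as the equal-weight mean of the differences within CMPs, GMPs and cMoPs. Expression of 4 of the 35 members was lower after antibiotics: Rtp4, Isg15, Ifih1 and Parp14, by 1.33-fold to 1.87-fold. None was higher. These calls used limma with Benjamini-Hochberg adjustment over all genes at a false discovery rate under 0.2, the rate of the study's design, and at this rate 0.243% of all genes were called lower and 0.271% higher. Called means past that threshold for water differences, and past a false discovery rate under 0.05 for the progenitor differences further below. At an unadjusted p under 0.05, 13 members passed, all with negative differences, against 5.23% of all genes. The difference was negative for 30 of the 35 (85.7%), against 54.2% of all genes, with a median of -0.16 for the members and -0.01 for all genes. All measured members but Mx1, Mx2, Rsad2, Trim30a and Cxcl10 had a mean signal above that of the median gene. Shares of all genes, here and below, also count dimmer genes, and shares among genes of like signal were not counted. The list was chosen with earlier results of these data known, so these shares are no independent test of the members.

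The calls depended on single arrays. The number called lower was 0 without CMP antibiotic 1 or GMP control 2, 1 (Parp14) without CMP antibiotic 2, GMP antibiotic 2, cMoP antibiotic 1 or cMoP antibiotic 2, and 2 without CMP control 3, GMP antibiotic 1, GMP control 1 or cMoP control 2. The largest number, without cMoP antibiotic 3, was 6. Parp14 stayed called in 14 of the 16 fits that left out an array, Ifih1 in 9, Isg15 in 7 and Rtp4 in 5, and each difference stayed negative in all 16.

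**Figure D1:**
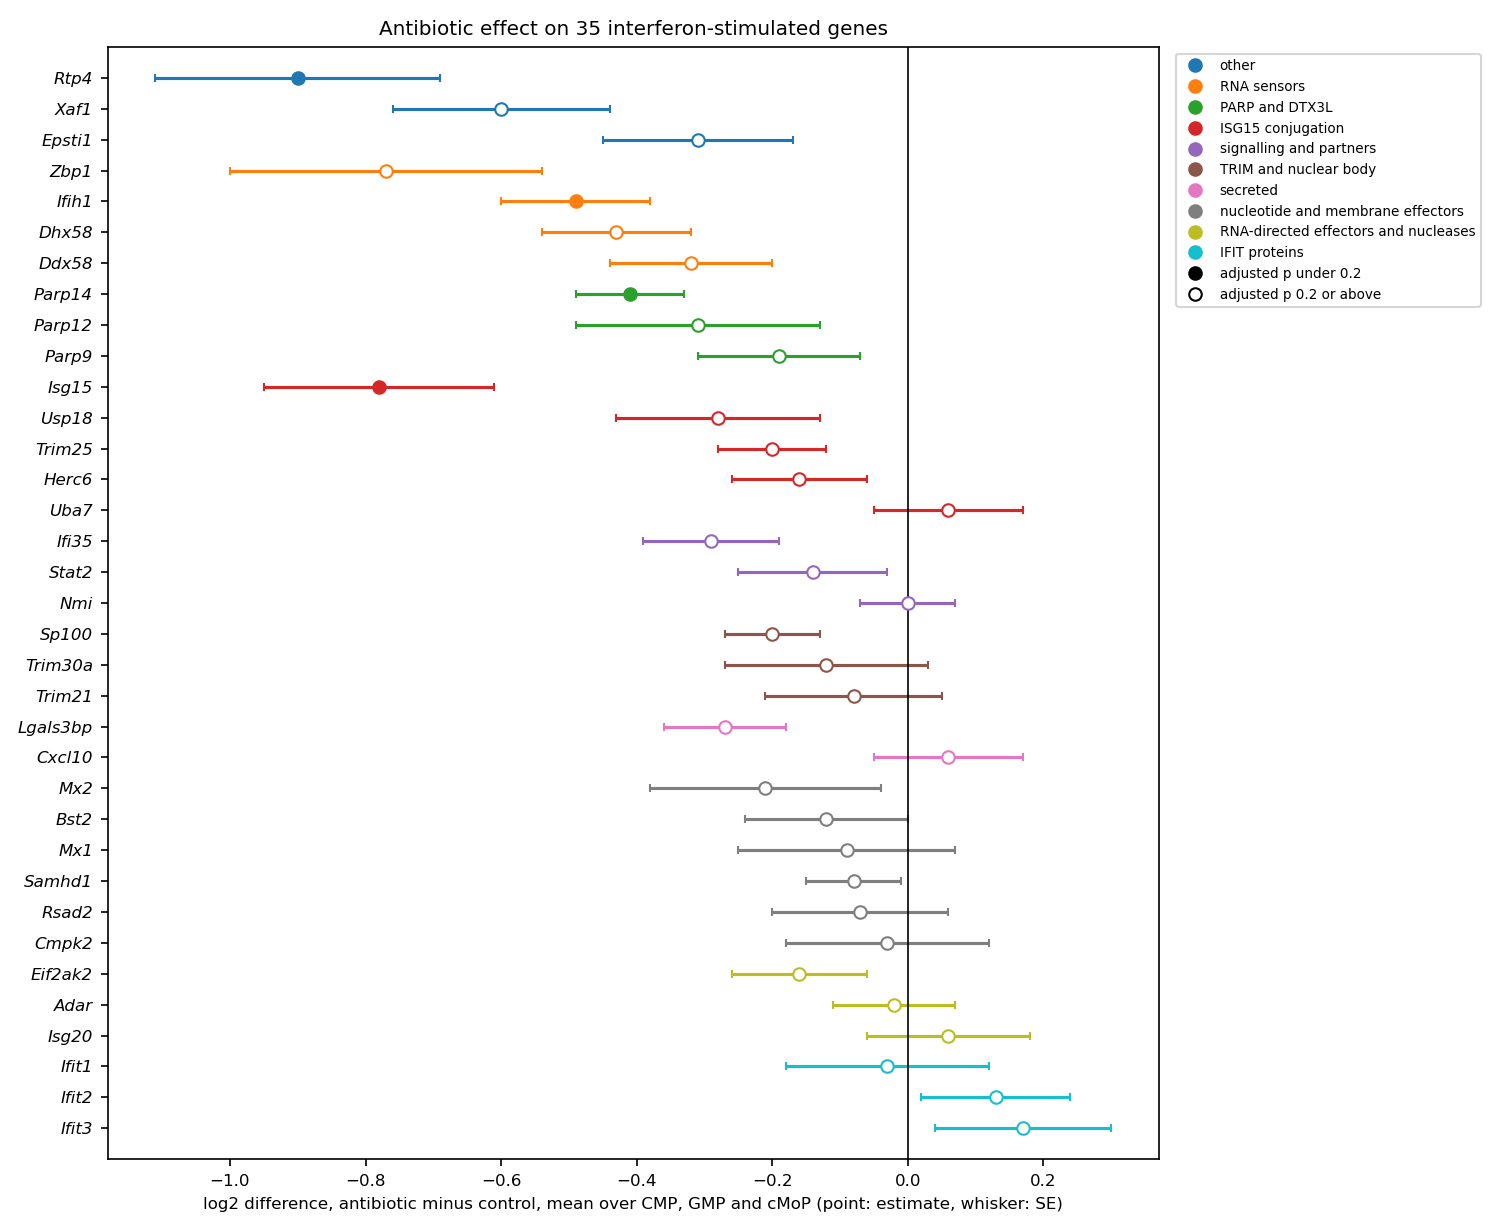
Log2 difference of antibiotic minus control, as the mean over CMPs, GMPs and cMoPs, for 35 interferon-stimulated genes grouped by role. Points are limma estimates, whiskers their standard errors, and filled points mark an adjusted p under 0.2. Rtp4 (-0.90), Isg15 (-0.78), Ifih1 (-0.49) and Parp14 (-0.41) are filled, while the IFIT genes lie between -0.03 and 0.17.

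Isg15 encodes a ubiquitin-like protein that is released from cells and attached to other proteins. In CMPs, Isg15 measured 5.29, 4.54 and 5.44 after antibiotics, against 5.45, 6.17 and 6.25 in controls. In GMPs, Isg15 measured 5.21, 4.91 and 5.24 after antibiotics, against 5.34 and 5.86 in controls. In cMoPs, Isg15 measured 4.53, 4.02 and 4.52 after antibiotics, against 4.96 and 5.74 in controls. The antibiotic arrays were all below the control arrays in each of the 3 progenitors, most narrowly in CMPs, where the highest antibiotic array was next to the lowest control array. Over the progenitors Isg15 was 1.72-fold lower after antibiotics (log2 difference -0.78 ± 0.17, SE; adjusted p = 0.148, limma with Benjamini-Hochberg). The difference was -0.87 ± 0.28 in CMPs, -0.48 ± 0.31 in GMPs and -0.99 ± 0.31 in cMoPs.

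The other genes of ISG15 conjugation were not called. They are Uba7, which activates ISG15, Herc6, the ligase that attaches it in mice, Usp18, which removes it and restrains the type I receptor, and Trim25, a ubiquitin ligase that acts on the RNA sensor RIG-I. In CMPs, Usp18 measured 6.82, 6.14 and 6.05 after antibiotics, against 6.32, 6.98 and 6.52 in controls. In GMPs, Usp18 measured 5.5, 5.39 and 5.34 after antibiotics, against 5.17 and 6.03 in controls. In cMoPs, Usp18 measured 5.4, 5.18 and 5.36 after antibiotics, against 5.94 and 5.42 in controls. Its arrays overlapped in CMPs and GMPs and separated in cMoPs, with a mean difference of -0.28 ± 0.15 (adjusted p = 0.589, limma). In CMPs, Uba7 measured 7.66, 7.43 and 7.64 after antibiotics, against 7.59, 7.96 and 7.36 in controls. In GMPs, Uba7 measured 7.06, 7.42 and 6.96 after antibiotics, against 7.14 and 7.24 in controls. In cMoPs, Uba7 measured 6.44, 6.38 and 6.95 after antibiotics, against 6.35 and 6.24 in controls. Antibiotic and control arrays of Uba7 overlapped in CMPs and GMPs, and in cMoPs every antibiotic array was above both controls. The mean difference of Uba7 was 0.06 ± 0.11 (SE). Trim25 differed by -0.20 ± 0.08 (adjusted p = 0.436, limma), with all antibiotic arrays below all controls in CMPs and cMoPs, and Herc6 by -0.16 ± 0.10.

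Among the cytoplasmic sensors of nucleic acid, all 4 had negative differences, each at an unadjusted p under 0.05, and 1, Ifih1, was called. Of all genes, 54.2% had negative differences, 5.23% had them at that unadjusted p, and 0.243% were called lower. Ifih1 encodes MDA5, a sensor of long double-stranded RNA. In CMPs, Ifih1 measured 6.77, 6.7 and 7.17 after antibiotics, against 7.28, 7.22 and 7.73 in controls. In GMPs, Ifih1 measured 6.92, 6.49 and 6.6 after antibiotics, against 7.05 and 6.96 in controls. In cMoPs, Ifih1 measured 5.8, 5.7 and 5.98 after antibiotics, against 6.29 and 6.59 in controls. All antibiotic arrays were below all control arrays in every progenitor, by the smallest margin in GMPs and CMPs. Over the progenitors Ifih1 was 1.41-fold lower after antibiotics (-0.49 ± 0.11, SE; adjusted p = 0.145, limma). Isg15 and Ifih1 were the 2 members (5.71%) with full separation in the same direction in all 3 progenitors, against 0.252% of all genes.

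Dhx58 encodes LGP2, a relative of MDA5 that lacks the signalling domain. In CMPs, Dhx58 measured 5.62, 5.45 and 5.74 after antibiotics, against 5.98, 6.53 and 6.15 in controls. In GMPs, Dhx58 measured 6.03, 5.76 and 5.84 after antibiotics, against 5.8 and 6.16 in controls. In cMoPs, Dhx58 measured 5.74, 5.29 and 5.92 after antibiotics, against 6.24 and 6.2 in controls. The arrays separated in CMPs and cMoPs and overlapped in GMPs. Dhx58 differed by -0.43 ± 0.11 over the progenitors and missed the threshold (adjusted p = 0.233, limma). Ddx58 encodes RIG-I, a sensor of RNA ends. In CMPs, Ddx58 measured 6.21, 5.98 and 5.83 after antibiotics, against 6.2, 6.03 and 6.13 in controls. In GMPs, Ddx58 measured 5.87, 6.04 and 5.86 after antibiotics, against 5.96 and 6.27 in controls. In cMoPs, Ddx58 measured 4.47, 4.35 and 3.62 after antibiotics, against 4.88 and 4.75 in controls. Ddx58 overlapped between waters in CMPs and GMPs and separated in cMoPs, where cMoP antibiotic 3 was the lowest array. Its mean difference was -0.32 ± 0.12 (adjusted p = 0.374, limma) and its difference within cMoPs was -0.67 ± 0.21 (adjusted p = 0.617, limma). Zbp1, a sensor of Z-form nucleic acid, had a larger difference with a larger error, -0.77 ± 0.23 (adjusted p = 0.292, limma), and its antibiotic arrays lay below both controls in GMPs and in cMoPs.

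Parp14 encodes an enzyme that adds single ADP-ribose units to proteins. In CMPs, Parp14 measured 6.31, 6.39 and 6.42 after antibiotics, against 6.87, 6.94 and 6.83 in controls. In GMPs, Parp14 measured 5.97, 6.05 and 5.74 after antibiotics, against 6.25 and 6.38 in controls. In cMoPs, Parp14 measured 6.02, 5.78 and 5.9 after antibiotics, against 6.02 and 6.43 in controls. The waters separated widely in CMPs and clearly in GMPs, while in cMoPs the highest antibiotic array equalled the lower control. Parp14 was 1.33-fold lower after antibiotics (-0.41 ± 0.08, SE; adjusted p = 0.105, limma), with differences of -0.51 ± 0.13 in CMPs, -0.39 ± 0.15 in GMPs and -0.32 ± 0.15 in cMoPs. Parp9, which works with Dtx3l, and Parp12, another ADP-ribosyl transferase, were not called (-0.19 ± 0.12 and -0.31 ± 0.18). The arrays of Parp9 separated in CMPs, with 6.29 to 6.80 after antibiotics and 7.02 to 7.37 in controls, and overlapped in GMPs and cMoPs.

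Rtp4 encodes a chaperone that carries receptors to the cell surface. In CMPs, Rtp4 measured 7.6, 6.42 and 7.59 after antibiotics, against 7.51, 7.54 and 7.93 in controls. In GMPs, Rtp4 measured 4.7, 4.78 and 5.43 after antibiotics, against 5.73 and 6.22 in controls. In cMoPs, Rtp4 measured 2.68, 3.13 and 3.84 after antibiotics, against 4.08 and 4.85 in controls. In GMPs and cMoPs every antibiotic array was below every control array, and in CMPs antibiotic 2 was low while the other antibiotic arrays fell among the controls. Rtp4 was 1.87-fold lower after antibiotics (-0.90 ± 0.21, SE; adjusted p = 0.180, limma), with differences of -0.46 ± 0.34 in CMPs, -1.0 ± 0.38 in GMPs and -1.25 ± 0.38 in cMoPs. cMoP antibiotic 1 lay below the lower quartiles of the arrays, so the size in cMoPs is uncertain.

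Xaf1 encodes a partner of the apoptosis inhibitor XIAP. In CMPs, Xaf1 measured 7.56, 7.06 and 7.58 after antibiotics, against 7.73, 7.62 and 7.39 in controls. In GMPs, Xaf1 measured 6.05, 5.66 and 6.79 after antibiotics, against 7.23 and 7.21 in controls. In cMoPs, Xaf1 measured 6.35, 5.97 and 6.88 after antibiotics, against 6.79 and 7.13 in controls. The waters separated in GMPs only, where the antibiotic arrays also spread most. Xaf1 differed by -0.60 ± 0.16 (adjusted p = 0.265, limma) over the progenitors, and in GMPs by -1.05 ± 0.29 (adjusted p = 0.433, limma). Without GMP antibiotic 3, Xaf1 was called in GMPs, the only member called in any water comparison within GMPs in the fits that left out an array. Epsti1 differed by -0.31 ± 0.14 (adjusted p = 0.508, limma).

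**Figure D2:**
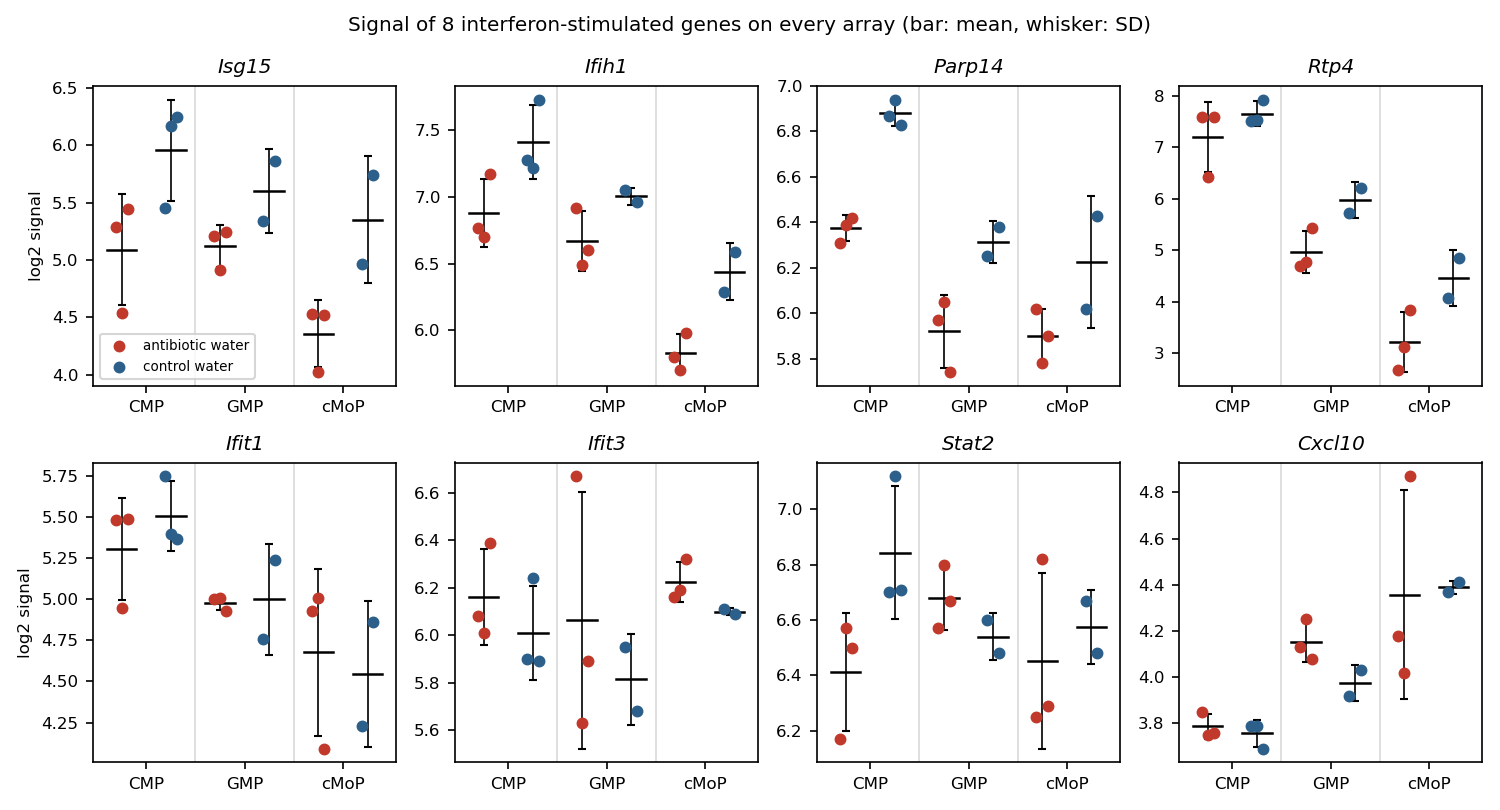
Log2 signal on every array (vertical axis, own scale in each panel) for 8 members in CMPs, GMPs and cMoPs, antibiotic water in red on the left of each pair and control water in blue, with bars for means and whiskers for SD (n = 3, or 2 for control GMPs and cMoPs). Isg15 and Ifih1 separate by water in each progenitor, Parp14 in CMPs and GMPs, Rtp4 in GMPs and cMoPs, and Ifit1 overlaps in all 3.

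The IFIT genes, often used as readouts of type I interferon, were not among those called. IFIT proteins bind foreign RNA and block its translation. In CMPs, Ifit1 measured 5.48, 4.95 and 5.49 after antibiotics, against 5.75, 5.4 and 5.37 in controls. In GMPs, Ifit1 measured 5.0, 5.01 and 4.93 after antibiotics, against 4.76 and 5.24 in controls. In cMoPs, Ifit1 measured 4.93, 5.01 and 4.09 after antibiotics, against 4.23 and 4.86 in controls. Ifit1 overlapped between waters in every progenitor, with a mean difference of -0.03 ± 0.15 (adjusted p = 0.971, limma), a sign that turned when single arrays were left out. In CMPs, Ifit2 measured 6.11, 6.06 and 6.06 after antibiotics, against 5.62, 5.88 and 5.86 in controls. In GMPs, Ifit2 measured 5.96, 5.99 and 5.85 after antibiotics, against 5.95 and 6.37 in controls. In cMoPs, Ifit2 measured 5.8, 5.86 and 5.61 after antibiotics, against 5.02 and 5.83 in controls. In CMPs every antibiotic array of Ifit2 was above every control, while in GMPs and cMoPs the waters overlapped. The mean difference of Ifit2 was 0.13 ± 0.11 (adjusted p = 0.736, limma). Within cMoPs it was 0.33 ± 0.20, not called with all arrays and called higher without cMoP control 2, a fit in which cMoP control 1 was the only control left and its spread was taken to be like that of the other groups. In CMPs, Ifit3 measured 6.08, 6.01 and 6.39 after antibiotics, against 5.9, 6.24 and 5.89 in controls. In GMPs, Ifit3 measured 6.67, 5.63 and 5.89 after antibiotics, against 5.95 and 5.68 in controls. In cMoPs, Ifit3 measured 6.16, 6.19 and 6.32 after antibiotics, against 6.11 and 6.09 in controls. Ifit3 overlapped in CMPs and GMPs and was above both controls in cMoPs by a narrow margin, with a mean difference of 0.17 ± 0.13 (adjusted p = 0.705, limma). Close relatives of Ifit1 and Ifit3 stand beside them in the genome, and signal shared between the copies cannot be told apart.

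The effectors directed at RNA were not called over the progenitors. Eif2ak2 encodes PKR, a kinase that stops translation on double-stranded RNA. In CMPs, Eif2ak2 measured 6.79, 6.59 and 6.85 after antibiotics, against 7.0, 7.28 and 7.7 in controls. In GMPs, Eif2ak2 measured 6.8, 6.84 and 6.92 after antibiotics, against 6.61 and 6.75 in controls. In cMoPs, Eif2ak2 measured 6.42, 6.51 and 6.41 after antibiotics, against 6.27 and 6.75 in controls. In CMPs all antibiotic arrays were below all controls, and in GMPs all were above both controls. The mean difference of Eif2ak2 was -0.16 ± 0.10 (adjusted p = 0.665, limma). Adar edits adenosines in double-stranded RNA. In CMPs, Adar measured 6.85, 6.79 and 6.98 after antibiotics, against 7.04, 6.95 and 6.89 in controls. In GMPs, Adar measured 6.46, 6.84 and 6.74 after antibiotics, against 6.6 and 6.54 in controls. In cMoPs, Adar measured 6.55, 6.53 and 6.53 after antibiotics, against 6.33 and 6.93 in controls. Adar arrays of the waters overlapped in every progenitor (mean difference -0.02 ± 0.09). Isg20 encodes an exonuclease. In CMPs, Isg20 measured 6.77, 6.78 and 7.26 after antibiotics, against 6.66, 6.87 and 6.94 in controls. In GMPs, Isg20 measured 5.55, 5.85 and 5.97 after antibiotics, against 5.75 and 5.79 in controls. In cMoPs, Isg20 measured 5.17, 4.99 and 5.63 after antibiotics, against 5.43 and 4.98 in controls. Isg20 overlapped in each progenitor too, with a mean difference of 0.06 ± 0.12.

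Mx1 and Mx2, dynamin-like GTPases that block viruses, and Rsad2, which encodes viperin, had dim signals. In the C57BL/6J reference both are annotated as transcribed pseudogenes, and signal shared between Mx1 and Mx2 cannot be told apart. In CMPs, Mx1 measured 3.33, 3.25 and 3.13 after antibiotics, against 3.96, 2.92 and 3.32 in controls. In GMPs, Mx1 measured 3.4, 2.93 and 3.06 after antibiotics, against 3.04 and 3.12 in controls. In cMoPs, Mx1 measured 3.3, 3.42 and 4.01 after antibiotics, against 3.28 and 4.18 in controls. The Mx1 arrays overlapped between waters throughout (-0.09 ± 0.16), and the lowest of them were at the lower quartiles of the arrays. In CMPs, Rsad2 measured 3.85, 4.37 and 3.93 after antibiotics, against 3.86, 4.04 and 4.23 in controls. In GMPs, Rsad2 measured 3.6, 3.53 and 3.69 after antibiotics, against 4.02 and 3.22 in controls. In cMoPs, Rsad2 measured 3.07, 3.57 and 3.36 after antibiotics, against 3.38 and 3.67 in controls. Rsad2 likewise overlapped in all 3 progenitors (-0.07 ± 0.13). Bst2 encodes tetherin, which holds budding virus at the cell surface and also marks plasmacytoid dendritic cells. In CMPs, Bst2 measured 8.45, 8.11 and 8.6 after antibiotics, against 8.45, 8.59 and 8.7 in controls. In GMPs, Bst2 measured 8.43, 7.82 and 8.81 after antibiotics, against 8.33 and 8.61 in controls. In cMoPs, Bst2 measured 8.84, 8.79 and 8.72 after antibiotics, against 8.87 and 8.81 in controls. Bst2 overlapped in every progenitor (-0.12 ± 0.12), and GMP antibiotic 2 was its lowest array. Of the rest of this group, Samhd1, which breaks down DNA building blocks, differed by -0.08 ± 0.07, and Cmpk2, a nucleotide kinase, by -0.03 ± 0.15.

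The remaining members had small differences. Cxcl10 encodes a chemokine that attracts T cells. In CMPs, Cxcl10 measured 3.85, 3.75 and 3.76 after antibiotics, against 3.79, 3.79 and 3.69 in controls. In GMPs, Cxcl10 measured 4.13, 4.25 and 4.08 after antibiotics, against 3.92 and 4.03 in controls. In cMoPs, Cxcl10 measured 4.18, 4.02 and 4.87 after antibiotics, against 4.37 and 4.41 in controls. Cxcl10 arrays separated upward in GMPs only (mean difference 0.06 ± 0.11). Trim30a is a member of a mouse TRIM family with close copies, which the probe sets may share. In CMPs, Trim30a measured 4.41, 3.56 and 3.89 after antibiotics, against 4.48, 4.37 and 4.03 in controls. In GMPs, Trim30a measured 3.45, 3.97 and 4.13 after antibiotics, against 3.88 and 4.08 in controls. In cMoPs, Trim30a measured 4.38, 5.1 and 4.54 after antibiotics, against 4.38 and 4.75 in controls. Its arrays overlapped in each progenitor (-0.12 ± 0.15). Stat2 is the subunit of the type I transcription complex that carries its activation domain. In CMPs, Stat2 measured 6.17, 6.57 and 6.5 after antibiotics, against 6.7, 7.12 and 6.71 in controls. In GMPs, Stat2 measured 6.57, 6.8 and 6.67 after antibiotics, against 6.6 and 6.48 in controls. In cMoPs, Stat2 measured 6.25, 6.82 and 6.29 after antibiotics, against 6.67 and 6.48 in controls. Stat2 separated downward in CMPs and overlapped in GMPs and cMoPs, with a mean difference of -0.14 ± 0.11 (adjusted p = 0.717, limma). Lgals3bp, a secreted glycoprotein (-0.27 ± 0.09), Ifi35 (-0.29 ± 0.10), which binds Nmi, and Sp100, a protein of nuclear bodies (-0.20 ± 0.07), had unadjusted p under 0.05 and were not called. Trim21, an intracellular antibody receptor, differed by -0.08 ± 0.13, and the difference of Nmi rounded to 0.

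Within single progenitors none of the 35 members was called by limma at a false discovery rate under 0.2, in either direction. Over all genes, 0.018% were called lower and 0.0225% higher in CMPs, 0.0225% and 0.0496% in GMPs, and 0.0406% and 0.0902% in cMoPs. At an unadjusted p under 0.05, 12 members were lower in CMPs, 5 in GMPs and 7 in cMoPs, and 0 were higher, against 3.86%, 4.22% and 3.44% of all genes lower. Differences were negative for 28 of 35 in CMPs (51.6% of all genes), 24 in GMPs (52.2%) and 27 in cMoPs (52.2%), and the median differences were -0.20, -0.10 and -0.16. Of the fits that left out an array, 1 called a member lower within a progenitor (Xaf1 in GMPs) and 1 called a member higher (Ifit2 in cMoPs, with 1 control array left). Without a GMP or cMoP control, every such fit rests on a lone control array assumed to vary like the other groups.

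Full separation, with every antibiotic array below every control, occurred for 12 members in CMPs (34.3%), against 6.36% of all genes. They were Isg15, Parp14, Parp9, Sp100, Ifih1, Dhx58, Stat2, Trim25, Trim21, Lgals3bp, Eif2ak2 and Ifi35. In GMPs it occurred for 8 (22.9%, against 12.6%), which were Isg15, Rtp4, Parp14, Xaf1, Ifih1, Mx2, Zbp1 and Ifi35. In cMoPs it occurred for 9 (25.7%, against 11.4%), which were Isg15, Rtp4, Sp100, Ddx58, Ifih1, Dhx58, Usp18, Zbp1 and Trim25. Full separation upward was seen for 2 members in each progenitor: Ifit2 and Nmi in CMPs, Eif2ak2 and Cxcl10 in GMPs, and Ifit3 and Uba7 in cMoPs, against 5.21%, 10.4% and 9.59% of all genes. At least 2 progenitors separated downward for 9 members (25.7%), against 3.49% of all genes, and upward for 0, against 2.8%.

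**Figure D3:**
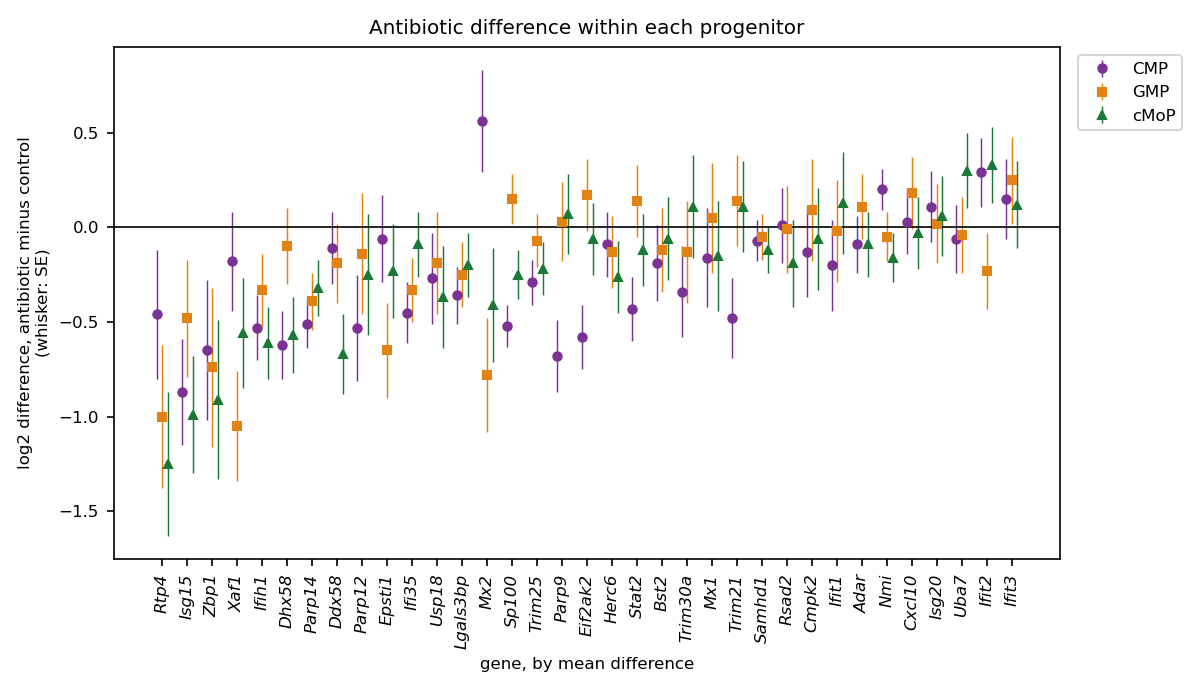
Log2 difference of antibiotic minus control within CMPs (circles), GMPs (squares) and cMoPs (triangles) for 35 members ordered by their mean difference, with standard errors of limma as whiskers. Rtp4, Isg15, Zbp1 and Ifih1 are negative in each progenitor, and Mx2 (0.56 in CMPs, -0.78 in GMPs) and Sp100 (-0.52 in CMPs, 0.15 in GMPs) lie on opposite sides of 0.

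An F test on the interaction asked whether the effect of antibiotics depended on the progenitor. None of the members passed (limma, false discovery rate under 0.2), against 0.00451% of all genes, and 4 (11.4%) had an unadjusted p under 0.05, against 5.79% of all genes. These were Sp100 (adjusted p = 0.694), Mx2 (0.758), Eif2ak2 (0.805) and Parp9 (0.822). So the larger CMP differences of Sp100 (-0.52 ± 0.11), Parp9 (-0.68 ± 0.19) and Eif2ak2 (-0.58 ± 0.17) were not shown to differ from those in GMPs and cMoPs.

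Averaged over the 35 members, the log2 signal was 6.35 to 6.59 in antibiotic CMPs, against 6.68 to 6.73 in control CMPs. It was 6.05 to 6.21 in antibiotic GMPs, against 6.30 to 6.34 in control GMPs, and 5.95 to 6.05 in antibiotic cMoPs, against 6.12 to 6.31 in control cMoPs. Within each progenitor every antibiotic array was below every control array. CMP antibiotic 2 and GMP antibiotic 2 were each the lowest array of their group for 19 members. By the same average, the OAS family with RNase L separated downward in GMPs and cMoPs. It overlapped in CMPs (3.77 to 4.18, against 4.14 to 4.44). By the log2 of summed signal, that family and the members both separated downward in all 3 progenitors. By the average, the IFITM family separated downward in CMPs only, and the guanylate-binding proteins with immunity-related GTPases in cMoPs only. Lists of genes of other cells separated between the waters in at most 2 progenitors each and overlapped elsewhere. The macrophage, mature neutrophil and B lineage lists overlapped in every progenitor. The mature monocyte list (10 genes, among them the gate genes Csf1r and Ly6c2) averaged 6.65 to 6.93 in antibiotic CMPs, against 7.21 to 7.27 in control CMPs, and 7.41 to 7.60 in antibiotic GMPs, against 7.62 to 7.80 in control GMPs. In cMoPs it overlapped, at 8.28 to 8.44 with antibiotics and 8.35 to 8.38 in controls. Of its genes, Ccr2, Cx3cr1 and F13a1, 3 of the 10, were called lower over the progenitors, against 0.243% of all genes. The erythroid list (7 genes measured) averaged 5.76 to 5.83 in antibiotic GMPs, against 5.28 to 5.32 in control GMPs. It overlapped in CMPs (9.08 to 9.33, against 9.01 to 9.20) and in cMoPs (4.87 to 5.06, against 4.77 to 4.94), and Car1 was called higher over the progenitors. The dendritic list (8 measured) averaged 5.28 to 5.63 in antibiotic CMPs, against 5.06 to 5.23 in control CMPs. It overlapped in GMPs (4.46 to 4.61, against 4.53 to 4.55) and in cMoPs (4.44 to 4.68, against 4.61 to 4.67), and H2-Ab1 was called higher over the progenitors. Of the plasmacytoid dendritic list, which holds Bst2, 0 of 9 genes were called, with a median difference of 0.12. This list averaged 5.37 to 5.53 in antibiotic cMoPs, against 5.27 in both control cMoP arrays, and overlapped in CMPs and GMPs. The T and NK list separated upward in CMPs (4.07 to 4.09, against 3.83 to 4.06). The stromal and endothelial list separated downward by narrow margins in CMPs and cMoPs. The part of these cells in the lower interferon-stimulated genes was not tested, and in sorted bulk samples fewer cells of a type and less RNA per cell cannot be told apart.

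The genes upstream of the members showed no called difference with antibiotics, in any progenitor or over them. This held for 17 interferon genes, 9 receptor and kinase genes, 6 transcription factors, 8 inhibitors and 13 sensors and adaptors. Over the progenitors, 0.243% of all genes were called lower and 0.271% higher. Lists this short would rarely hold a call at such shares. At an unadjusted p under 0.05 over the progenitors, 0, 0, 1, 0 and 2 were lower, against 5.23% of all genes, and 0 were higher. Ifnb1, the gene of interferon-beta, averaged 2.16 to 2.48 in the 6 groups, below the lower quartiles of the arrays. The receptor genes Ifnar1 (0.05 ± 0.07) and Ifnar2 (-0.07 ± 0.08) differed little. Irf9, the DNA-binding subunit of the type I complex, differed by -0.35 ± 0.14 (adjusted p = 0.451, limma) and Irf7, which amplifies interferon production, by -0.28 ± 0.17 (adjusted p = 0.630, limma).

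Related families held called genes too. Of all genes, 54.2% had negative differences over the progenitors and 0.243% were called lower. In the OAS family with RNase L, which cuts RNA once double-stranded RNA is sensed, 8 of 11 differences were negative (median -0.24) and Oas3 (-0.75 ± 0.12) and Oasl2 (-0.64 ± 0.14) were lower. In the IFITM family 2 of 6 were negative (median 0.03) and Ifitm3 (-0.47 ± 0.09) was lower. Among guanylate-binding proteins and immunity-related GTPases, typical targets of interferon-gamma, 12 of 14 were negative (median -0.19) and Gbp5 (-0.75 ± 0.15) was lower. The differences between these families and the members were not tested.

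The second comparison was between progenitors, averaged over both waters. More members were called lower than higher along the path toward monocytes, and CMPs had the highest mean for 25 of the 35, against 31.4% of all genes. GMPs had the highest mean for 2 (30.5% of all genes) and cMoPs for 8 (38.1%). The 3 comparisons share arrays, and cMoP minus CMP is the sum of the other 2, so they are given side by side. Calls used limma with Benjamini-Hochberg adjustment at a false discovery rate under 0.05. As with the waters, the shares of all genes also count genes dimmer than most members. In GMPs minus CMPs, 11 members (31.4%) were lower, against 8.17% of all genes, and 0 were higher, against 7.87%. In cMoPs minus GMPs, 5 (14.3%, against 2.82%) were lower and 3 (8.57%, against 2.6%) were higher. In cMoPs minus CMPs, 18 (51.4%, against 9.2%) were lower and 1 was higher, against 9.72%. Negative differences numbered 30 in GMPs minus CMPs (45.4% of all genes), 20 in cMoPs minus GMPs (47.0%) and 27 in cMoPs minus CMPs (41.9%), with medians of -0.29, -0.04 and -0.33.

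The largest difference was that of Rtp4, which was 12-fold lower in cMoPs than in CMPs (-3.59 ± 0.26, SE; adjusted p = 3.25e-08, limma). Its mean over both waters was 7.43 in CMPs, 5.47 in GMPs and 3.84 in cMoPs. Every CMP array was above every array of the other progenitors, and the highest cMoP array (control) passed the lowest GMP arrays (antibiotic). Both steps were called, GMPs minus CMPs (-1.96 ± 0.26) and cMoPs minus GMPs (-1.63 ± 0.27). Isg20 was 3.13-fold lower in cMoPs than in CMPs (-1.65 ± 0.14; adjusted p = 3.16e-07, limma), again with both steps called (-1.10 ± 0.14 and -0.55 ± 0.15). The step of Isg20 from GMPs to cMoPs was called in 5 of 9 alternatives with all arrays and in 5 of 16 fits without 1 array. Uba7 showed the same order (-1.16 ± 0.14; adjusted p = 8.8e-06, limma), with steps of -0.44 ± 0.14 and -0.73 ± 0.14, of which the first was called in 5 of 9 alternatives and 8 of 16 fits without 1 array. Both steps of Rtp4 were called in 9 of 9 and 16 of 16.

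Of the RNA sensors, Ddx58 and Ifih1 were called between cMoPs and GMPs and not between GMPs and CMPs. Ddx58 was 2.99-fold lower in cMoPs than in CMPs (-1.58 ± 0.14; adjusted p = 4.09e-07, limma), and the difference between GMPs and CMPs was -0.04 ± 0.14. Ifih1 was 2.02-fold lower (-1.01 ± 0.13; adjusted p = 2.4e-05, limma), with -0.31 ± 0.13 between GMPs and CMPs, not called, and -0.70 ± 0.14 between cMoPs and GMPs, called. Dhx58 differed by 0.02 ± 0.13 between cMoPs and CMPs, with means between 5.91 and 5.94 in the 3 progenitors, and Zbp1 by -0.16 ± 0.28. Usp18 and Xaf1 were lower in GMPs than in CMPs (-0.97 ± 0.18 and -0.80 ± 0.20), and differed by -0.01 between cMoPs and GMPs.

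By role, all 5 genes of ISG15 conjugation were lower in cMoPs than in CMPs, with Isg15 itself at -0.67 ± 0.21 (adjusted p = 0.0319, limma). Of all genes, 9.2% were called lower there. Isg15 and Herc6 were each called in 5 of 9 alternatives with all arrays and in 10 of 16 fits without 1 array, and Trim25 in 8 of 9 and 9 of 16, while Uba7 and Usp18 were called in each. Of the RNA-directed effectors, Eif2ak2 was lower at -0.56 ± 0.12 beside Isg20. Adar, at -0.33 ± 0.11, was called with all arrays, but only in 3 of 9 alternatives and 3 of 16 fits without 1 array, in which its difference lay between -0.48 and -0.18. Parp12 (-1.12 ± 0.21) and Parp14 (-0.56 ± 0.10) were lower among the 3 PARP genes, and Ifit1 (-0.80 ± 0.18) among the 3 IFIT genes. Lgals3bp (-1.07 ± 0.11), Rsad2 (-0.62 ± 0.15), Trim21 (-0.62 ± 0.16) and Xaf1 (-0.81 ± 0.20) completed the calls. Of the signalling genes Stat2, Nmi and Ifi35, none was called between cMoPs and CMPs. Nmi was called lower in GMPs than in CMPs (-0.31 ± 0.08; adjusted p = 0.0195, limma).

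Cxcl10 was the member higher in cMoPs than in CMPs (0.60 ± 0.13; adjusted p = 0.00251, limma), with means of 3.77 in CMPs, 4.06 in GMPs and 4.37 in cMoPs. All cMoP arrays of Cxcl10 lay above all CMP arrays, and cMoP antibiotic 3 was the highest. The CMP mean of Cxcl10 was below the array medians (4.04 to 4.17), so the size of its difference is uncertain. Samhd1 (0.43 ± 0.09), Epsti1 (0.76 ± 0.18) and Trim30a (0.70 ± 0.19) were higher in cMoPs than in GMPs, while Samhd1 and Epsti1 were lower in GMPs than in CMPs (-0.27 ± 0.08 and -0.96 ± 0.17). The calls between cMoPs and GMPs held in 16 of 16 fits without 1 array for Samhd1, 14 for Epsti1 and 7 for Trim30a. With all arrays they held in 9 of 9, 7 of 9 and 5 of 8 alternatives. Between GMPs and CMPs, the call of Samhd1 held in 8 of 9 alternatives and 9 of 16 fits without 1 array. That of Epsti1 held in 9 of 9 and 16 of 16. Cxcl10 was called higher in GMPs than in CMPs without cMoP antibiotic 3, and Trim30a was called higher in cMoPs than in CMPs without CMP antibiotic 1 or cMoP antibiotic 1.

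Means over both waters were in falling order from CMP through GMP to cMoP for 18 of the 35 members, against 16.5% of all genes, and in rising order for 3 (Cxcl10, Sp100 and Dhx58), against 24.1%. Both steps were called for Rtp4, and for Isg20 and Uba7 only with the limits given above, and in the rest at least 1 pair of neighbours in the order did not differ beyond the threshold. Within single waters fewer arrays bear on each comparison. In GMPs minus CMPs, 8 members were lower in antibiotic water, against 5.44% of all genes, and 7 in control water, against 3.79%, while 1 and 0 were higher, against 5.5% and 4.26%. In cMoPs minus GMPs, 3 members were lower in antibiotic water, against 1.95% of all genes, and 1 in control water, against 0.969%, while 1 and 0 were higher, against 1.95% and 0.766%. In cMoPs minus CMPs, 11 members were lower in antibiotic water, against 6.32% of all genes, and 12 in control water, against 5.07%, while 2 and 1 were higher, against 7.16% and 5.17%. Whether the counts differ between waters was not tested. The erythroid list averaged 9.01 to 9.33 in CMPs, 5.28 to 5.83 in GMPs and 4.77 to 5.06 in cMoPs, and the mature monocyte list 6.65 to 7.27, 7.41 to 7.80 and 8.28 to 8.44. The part of these cells in the order of the members was not tested.

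**Figure D4:**
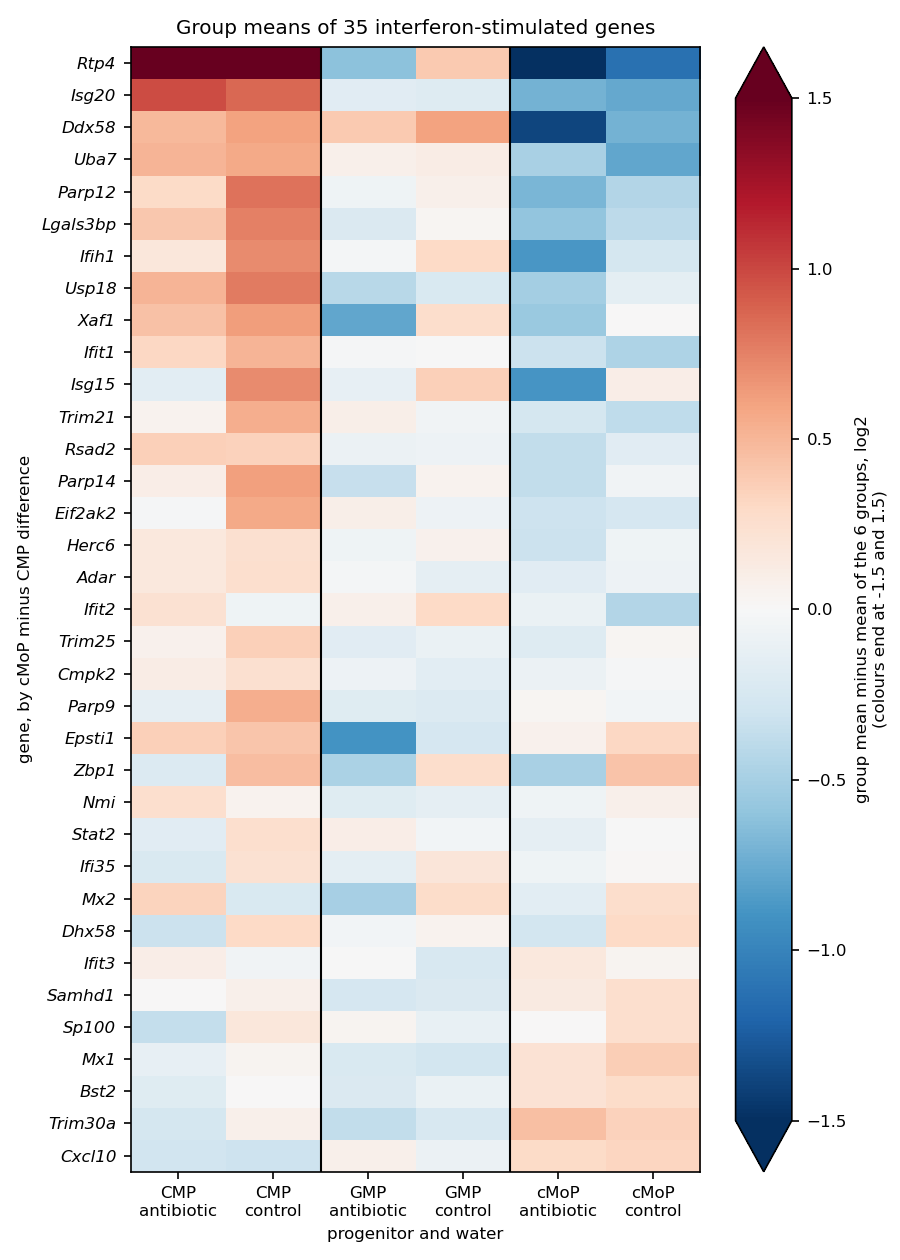
Group means of 35 members as log2 difference from the mean of the 6 groups (colour, red above and blue below, ending at 1.5 each way), with columns for CMPs, GMPs and cMoPs and antibiotic left of control water in each, and genes ordered by cMoP minus CMP. Rtp4, Isg20 and Ddx58 at the top are red in CMPs and blue in cMoPs, and Cxcl10 at the bottom is the reverse.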

How the data were processed

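The deposited table holds 1 log2 signal for each of 41345 probe sets and 16 arrays, hybridised with cDNA that was amplified from 2.6 ng of RNA with a NuGen whole-transcriptome kit and labelled with biotin, per the labels' protocols. Per the submitters' processing notes, the authors used Partek and Transcriptome Analysis Console. Versions, probe summarisation and any normalization between arrays were not given in the sources used here. Values were used as deposited. Of the probe sets, 23521 carried 1 gene symbol and were used, 1814 carried several and 16010 none. Where a gene had several, as 1082 did, the brightest was taken, which left 22180 genes with no filter on dim ones. Gene identifiers matched RefSeq for 23328 of the probe sets used and not for 193, and the symbols of all 35 measured members were the same there.

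Group means of the 6 groups were estimated with limma 3.58.1 (R 4.3.3), tested on simulated data, leaving 10 residual degrees of freedom. Water differences were called at a Benjamini-Hochberg false discovery rate under 0.2 over all genes, after the design text, which states a 2-way analysis of variance at this rate. Progenitor differences were called under 0.05. Tests are two-sided and errors are standard errors unless marked SD. Arrays give no count per sample, and their number limits the precision.

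The members and lists were chosen with earlier results of these data known. Values on every array are given for members called with antibiotics, the next 2 by adjusted p, those with the largest progenitor differences, and 12 chosen by name. Whether replicate numbers pair arrays was checked through the deviations from the group means: over 15 pairs of the same number and water the correlation lay between -0.049 and 0.104, with 1 above 0.1, so the numbers were not taken as pairs. Alternatives were a filter on dim genes, the mean of a gene's probe sets, all probe sets, quantile normalization, centring, other variance models, replicate blocks, single waters or progenitors, and leaving out each array. Promoters came from RefSeq on GRCm38.p6, and no protein sequence was used here.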

Additional observations from a re-analysis of the deposited data

Results flagged for a closer look

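Eif2ak2, the gene of the kinase PKR, was looked at again because its arrays moved in opposite directions in 2 progenitors. In CMPs the antibiotic arrays were all below the controls, with a log2 difference of -0.58 ± 0.17 (SE), while in GMPs every antibiotic array lay above both control arrays, with a difference of 0.17 ± 0.19. The difference between progenitors was tested with limma's F test on the interaction and did not pass (F = 4.94, adjusted p = 0.805, Benjamini-Hochberg over all genes). Single outlying arrays were not tested for, since no group holds more than 3.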

How the results depend on the processing

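With all 16 arrays, 4 members were called lower over the progenitors. The number was 7 when genes dimmer than the median gene were left out, 7 with trended and robust variances, 1 with all probe sets tested and 1 with no variance moderation, and the cause was not tested. The shares of all genes called under these settings were not counted. Parp14 was called in 9 of 9 alternatives that kept all arrays, and Isg15, Ifih1 and Rtp4 in 7 each. With the replicate block as a fixed term 6 members were called lower, Xaf1 and Zbp1 beside the 4, and with water and number as a random replicate block 4 were. Under the fixed replicate block the differences of Ifit1, Isg20 and Nmi changed sign to 0.02, -0.02 and 0 (rounded). Within CMPs, 1 member (Sp100) was called lower with the filter on dim genes, 1 with trended variances and 1 with no moderation.

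In GMPs minus CMPs, 8 members were lower in antibiotic water alone and 7 in control water alone, and 1 was higher in antibiotic water alone. In cMoPs minus GMPs, 3 were lower in antibiotic water alone and 1 in control water alone. Of the members higher there, 1 was called with all probe sets, 1 with no moderation, 1 in antibiotic water alone and 0 in control water alone. In cMoPs minus CMPs, 11 were lower in antibiotic water alone and 12 in control water alone, and 2 were higher with quantile normalization, with trended variances, with no moderation and in antibiotic water alone. Single waters use fewer arrays.

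Leaving out a GMP or cMoP control leaves 1 control array, whose spread is assumed to be like that of the other groups. Leaving out each array in turn, the number of members called lower over the progenitors lay between 0 and 6 and the number called higher stayed at 0. Within CMPs both numbers stayed at 0, within GMPs the lower calls were 0 to 1 and the higher 0, and within cMoPs the lower calls were 0 and the higher 0 to 1. The interaction had 0 in every such fit. GMPs minus CMPs had 9 to 12 lower and 0 to 1 higher, cMoPs minus GMPs 4 to 6 lower and 1 to 4 higher, and cMoPs minus CMPs 13 to 18 lower and 1 to 2 higher. Full separation downward, which fewer arrays reach more easily, was seen for 12 to 16 members in CMPs, 9 to 16 in GMPs, 12 to 19 in cMoPs and 2 to 4 in all 3. Shares of all genes were not counted in the fits that left out an array. These counts therefore show only how far the numbers move, not how the members compare with other genes. Differences near 0 changed sign when an array was left out for Ifit1 (-0.13 to 0.08), Ifit2 (0 to 0.27), Mx1 (-0.24 to 0.06), Rsad2 (-0.20 to 0.07), Trim21 (-0.23 to 0.07), Cmpk2 (-0.18 to 0.12), Adar (-0.12 to 0.08), Isg20 (-0.01 to 0.14), Cxcl10 (-0.03 to 0.11) and Nmi (-0.04 to 0.03). No member is shown to be above background, since the table has no detection calls.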
